A study of Mus musculus with 2 samples.

Results

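The genes described here encode the heat shock proteins and their DNAJ partners. They were taken by symbol from a count table of bone marrow-derived macrophages: HSP90 genes, the HSPA, HSPB, HSPD, HSPE and HSPH classes, the DNAJA, DNAJB and DNAJC classes, and Calr, Canx, Pdia3, Pdia4, Pdia6 and Xbp1. The rule gave 79 of the 46095 genes in the table, after 14 rows named as pseudogenes (-ps) were left out. Of the 79 genes, 60 reached an average of 1 CPM (reads scaled to a common library size) and were evaluated, 10 had fewer reads, and 9 were listed at 0 in both.

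Chaperones bind unfolded protein and release it in cycles of ATP hydrolysis. HSP70 proteins (HSPA) do this with DNAJ proteins, which deliver clients and start hydrolysis through their J domain, and with HSPH1 and HSPA4, which exchange the nucleotide. HSP90 acts later, on proteins close to their final fold. Heat and other damage to cytosolic proteins activate heat shock factor 1 (HSF1), whereas unfolded protein in the endoplasmic reticulum (ER) activates ATF6, IRE1 with XBP1, and PERK with ATF4. Macrophages secrete much protein, which passes through the ER.

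The cells came from femur and tibia of C57BL/6 mice and were cultured for 5 days with M-CSF at 100 ng/ml, the growth factor that drives marrow progenitors into macrophages. The KO library is labelled TIPE1-/-, and the series' design text gives LyzM-Cre with Tipe1f/f, in which Cre is made from the lysozyme locus Lyz2 of myeloid cells. The WT library is labelled wild type and came, by the same text, from Tipe1f/f mice, with no Cre named. The age, sex and number of the mice are not stated here. Cre acts in neutrophils too, and other marrow cells keep the gene. Each genotype had 1 library, so no difference below has a replicate check, no p-value was computed, and intervals are 95% counting intervals. WT and KO below mean these 2 libraries.

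The libraries held 11782664 (WT) and 15815956 (KO) counted reads. Tnfaip8l1, which encodes TIPE1, had 21 reads in WT and 3 in KO, 8.94-fold lower (2.67 to 46.8). Its average of 0.967 CPM is under the 1 CPM limit. Of 14 macrophage markers 13 were evaluated, with Csf1r at 2646 and 2414 CPM (WT and KO), and 7 of the 13 had ratios above 1. Adgre1 (F4/80) stood at 1064 and 2554 CPM, Lyz2 at 14958 and 8028 CPM, and Aif1 was at 0. Lyz2 is also the locus from which Cre is made in KO, and whether this bears on its level was not tested. Markers of some other cells differed between WT and KO. Fibroblast and stromal genes were lower in KO for 17 of 18 evaluated markers, summing to 2066 CPM against 181 CPM. The summed neutrophil markers stood at 705 and 505 CPM, with 4 of 9 at least 1.5-fold lower and intervals below 1 for all 9. Those of B cells stood at 10.6 and 2.33 CPM, with 3 of 3 lower. Not all lists went down. Of 4 endothelial markers 1 was higher (Vwf, 17.8 and 32.1 CPM) and 1 lower. Of 3 plasma cell markers 0 were higher and 1 lower, with Sdc1 at 108 and 156 CPM. For T and NK cells 0 of 3 were higher and 0 lower. The part of these cells in the results below was not tested, except where values bear on it, and in bulk RNA fewer cells of a type cannot be told apart from less RNA per cell.

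None of the 60 evaluated chaperone genes was at least 1.5-fold apart between the libraries with an interval that excluded a ratio of 1. With total counts in place of TMM scaling 1 gene, Hspb6, was called lower. Over all 12495 evaluated genes 6.47% were called higher and 7.23% lower. At a 2-fold limit the shares over all genes were 2.59% and 4.78%, and where the interval bound itself had to pass 1.5-fold they were 2.86% and 4.07%, again with 0 chaperones. At a limit of 25% above the lower library, 2 chaperone genes were higher in KO (12.1% of all genes) and 4 lower (11.4% of all genes). The 2 were Hspa5 and Hsp90aa1, and the 4 were Dnajb14, Dnajb2, Dnajc28 and Hspb6. Of the 60 genes, 52 lay within that 25% limit (86.7%), compared with 67.5% of all evaluated genes. The median log2 ratio of KO over WT was 0.04 for the chaperones and 0.01 for all evaluated genes, and it was -0.03 for the chaperones when libraries were scaled by total counts.

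The share of genes near equality depends on read number, so the comparison was repeated by level. Between 10 and 100 CPM, 30 of 31 chaperones lay within the 25% limit, beside 80.1% of 6264 genes. At 100 CPM or more it was 15 of 18 chaperones, beside 78.0% of 2115 genes. The median log2 ratio of these 18 abundant chaperones was 0.09, and that of all genes in the band was 0.08. Between 1 and 10 CPM the share was 7 of 11 chaperones, beside 42.8% of 4116 genes.

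**Figure D1:**
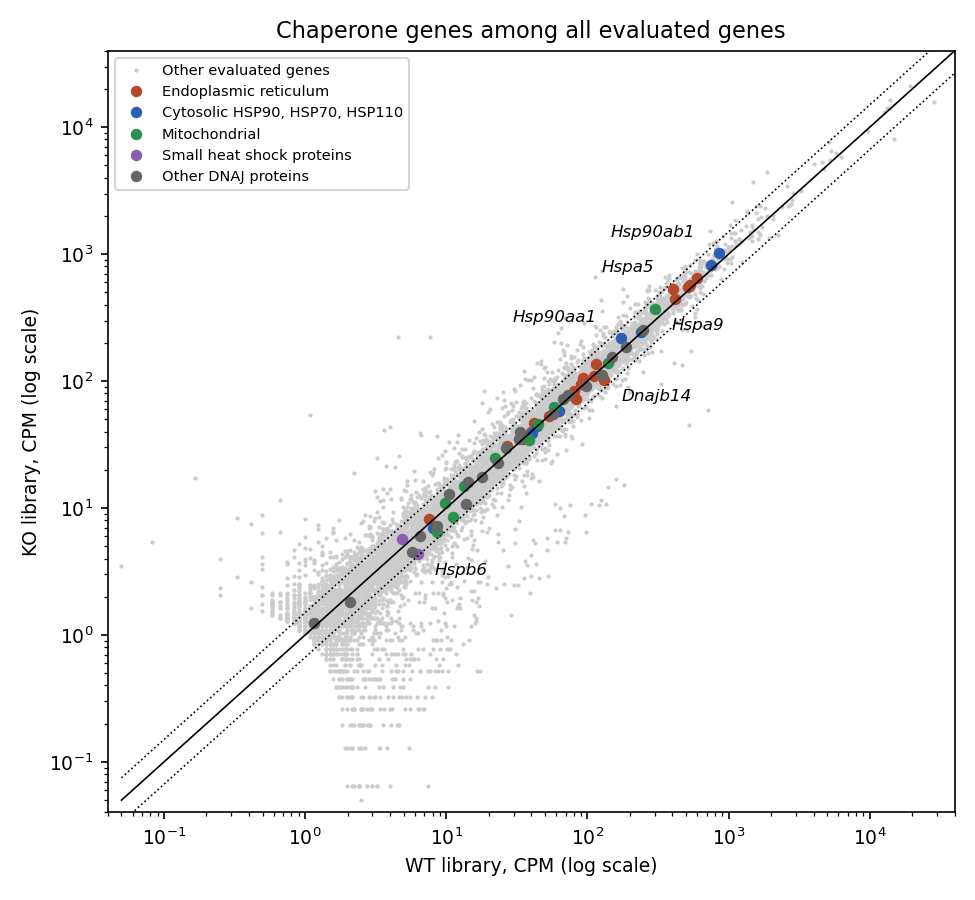
CPM in WT (horizontal, log scale) and in KO (vertical, log scale) for all 12495 evaluated genes, with the 60 chaperone genes coloured by compartment. The solid line marks equal levels and the dotted lines 1.5-fold, and values under 0.05 CPM are drawn at 0.05. All 60 coloured points lie between the dotted lines.

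Of the 7 highest members per length, 5 belong to the endoplasmic reticulum. Per kilobase of exon (GENCODE M21), Calr stood at 207 CPM per kb in WT and 227 in KO, Pdia3 at 134 and 141, Hsp90b1 at 129 and 137, Canx at 114 and 122, and Hspa5 at 95.2 and 125. Only Hsp90ab1 (287 and 339) lay above Calr, and the cytosolic Hspa8 (175 and 191) stood between Calr and Pdia3. The order of the 5 highest genes was the same in both libraries, while Hspa5 and Canx changed places. The 10 highest members carried 62.7% of all chaperone reads in WT and 65.0% in KO.

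Hspa5 encodes BiP, the HSP70 of the ER lumen, which also keeps the stress sensors silent (GRCm38 chromosome 2, 34771970 to 34777547, protein-coding). It had 4863 reads in WT and 8182 in KO, 403 and 530 CPM. The ratio was 1.32 (1.27 to 1.36), the furthest above 1 among the 60 genes, and 1.253 with total counts. Pdia6, a disulfide isomerase that works with BiP, stood at 115 CPM in WT and 136 CPM in KO, a ratio of 1.18 (1.10 to 1.26). The 2 were the ER members furthest above equality.

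The other abundant ER members outside the DNAJ genes lay closer to 1. Calreticulin (Calr), the soluble lectin chaperone, had a ratio of 1.09 (1.06 to 1.13), at 598 and 653 CPM. Its membrane-bound relative calnexin (Canx) had 1.07, the ER HSP90 Hsp90b1 had 1.07, and Pdia3, the isomerase that both lectins recruit, had 1.06. The intervals of these 3 genes excluded 1, but included it with total counts (ratios of 1.02, 1.02 and 1.01). Of the exon bases of Hsp90b1, 10.3% lie in another annotated gene as well. Pdia4 went the other way, at 82.5 CPM in WT and 71.9 CPM in KO (1.15-fold lower, 1.05 to 1.251).

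The DNAJ partners of BiP had ratios closer to 1 than that of Hspa5. Dnajb11, which brings unfolded clients to BiP, had a ratio of 1.13 (1.05 to 1.22), and 1.07 (0.995 to 1.16) with total counts. Dnajb9, which feeds back on IRE1, had 484 and 617 reads and a ratio of 0.998, and Dnajc3, an inhibitor of stress kinases that also binds clients, stood at 112 and 109 CPM. Dnajc10, a reductase, had 1.04 and Dnajc1 had 1.11, with intervals that included 1. BiP reads made up 52.3% (51.3 to 53.3, exact Clopper-Pearson) of the reads of BiP and these 5 partners in WT and 58.0% (57.1 to 58.8) in KO. This share does not depend on how the libraries are scaled. It restates the ratios above, since that of Hspa5 was the highest of the 60 genes.

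Among DNAJ proteins of the ER membrane, Dnajb14 had the lowest ratio. It had 1592 reads in WT and 1581 in the deeper KO, 132 and 102 CPM, which is 1.29-fold lower (1.20 to 1.38). Dnajb12, a close relative, stood at 36.1 and 36.5 CPM. Dnajc16, Dnajc18 and Dnajc25 had intervals that included 1. Hspa13, an HSP70-like protein of microsomes, had a ratio of 0.994. Xbp1, the transcription factor spliced by IRE1, stood at 90.3 and 94.0 CPM (ratio 1.04, 0.962 to 1.13). Gene counts do not separate its spliced from its unspliced form.

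Of the 19 ER members, 14 had a ratio above 1 and 5 below, and 51.8% of all evaluated genes had a ratio above 1. That share depends on level. It was 51.1% of all genes between 10 and 100 CPM, and 67.0% at 100 CPM or more. In that upper band lie Hspa5, Pdia6, Calr, Canx, Hsp90b1 and Pdia3, with ratios above 1, and Dnajb14 and Dnajc3, with ratios below 1. Intervals lay above 1 for 7 of the 19 and below 1 for 2. Over all genes these shares were 22.8% and 18.4%, not matched by read number, on which they depend. The ER members' median log2 ratio was 0.08, and 0.0086 with total counts, where 10 had ratios above 1, 3 had intervals above 1 and 3 below.

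Promoters were searched for the element that the ER stress response is known to use. The ER stress element, CCAAT and CCACG with 9 bases of any kind between them, is the sequence through which ATF6 and its partner NF-Y are known to act. It was searched on both strands of 300-base RefSeq promoters (GRCm38.p6, 250 bases before the start site to 50 after), which were found for 64 of the 79 genes. It occurred in 6 of 64 chaperones, all of them among the 17 ER members with a promoter (35.3%), and in 0.137% of all 27025 genes in the promoter table. Since the element is already known from the ER stress response, its presence in ER members is no result of these data, and no test was made. The 6 are shown because they are the ER genes with the pattern, with a stretch of promoter sequence, the element in capitals, and its reverse complement in capitals where it lies on the other strand.
Hspa5: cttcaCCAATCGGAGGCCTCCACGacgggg
Pdia6: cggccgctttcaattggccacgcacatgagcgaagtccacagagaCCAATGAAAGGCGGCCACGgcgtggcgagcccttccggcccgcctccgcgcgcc
Calr: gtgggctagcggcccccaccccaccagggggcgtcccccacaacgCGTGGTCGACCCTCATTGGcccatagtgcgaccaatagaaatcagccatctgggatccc
Canx: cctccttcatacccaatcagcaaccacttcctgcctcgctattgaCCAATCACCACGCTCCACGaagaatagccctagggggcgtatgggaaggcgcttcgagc
Hsp90b1: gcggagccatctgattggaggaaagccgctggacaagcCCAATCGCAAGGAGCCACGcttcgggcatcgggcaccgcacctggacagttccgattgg
Dnajc3: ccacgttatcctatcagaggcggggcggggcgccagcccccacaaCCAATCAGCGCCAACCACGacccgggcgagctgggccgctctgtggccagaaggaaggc

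On GRCm38.p6 these stretches are chr2:34772020-34772049 (+) for Hspa5, chr12:17266446-17266544 (+) for Pdia6, chr8:84847035-84847138 (-) for Calr, chr11:50325760-50325863 (-) for Canx, chr10:86705598-86705694 (-) for Hsp90b1 and chr14:118937782-118937885 (+) for Dnajc3. Hsp90b1 holds a second copy, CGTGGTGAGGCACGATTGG, closer to its start. The element of Hspa5 lies at positions -65 to -47 from the RefSeq start site, and inside the gene as GENCODE M21 bounds it. In the order printed, the KO over WT ratios of the 6 genes were 1.32, 1.18, 1.09, 1.07, 1.07 and 0.977. Genes with the same element thus ranged from BiP, the furthest above 1, to Dnajc3, whose interval included 1 (0.909 to 1.05). The related pattern of ATTGG, 1 base of any kind and CCACG, searched after the first results were seen, occurred in 1 chaperone, Dnajb11, and in 0.0444% of all genes. Outside the chaperones, 3 listed genes of ER folding and degradation held the ER stress element. Creld2 had a ratio of 0.809 (0.681 to 0.961), Syvn1 had 1.08 (0.986 to 1.19), and Derl3, with 1 and 3 reads, was not evaluated. Herpud1, a listed gene of the unfolded protein response, held the related pattern and had 1.27 (1.13 to 1.43).

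In the cytosol the HSP90 genes were higher in KO. Hsp90ab1, the constitutive HSP90 (chromosome 17, 45567775 to 45573271), had 10389 reads in WT and 15679 in KO, 860 and 1016 CPM. The ratio was 1.18 (1.15 to 1.21). Hsp90aa1, the inducible form (chromosome 12, 110690605 to 110702728), stood at 172 and 218 CPM, a ratio of 1.26 (1.19 to 1.33). With total counts the ratios were 1.12 and 1.20, with intervals still above 1. The inducible form supplied 16.7% (16.1 to 17.4) of the reads of the pair in WT and 17.6% (17.1 to 18.2) in KO.

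Cytosolic HSP70 genes lay closer to equality. Hspa8, the constitutive HSC70 (chromosome 9, 40800984 to 40810087), stood at 752 and 823 CPM, a ratio of 1.09 (1.06 to 1.12). The nucleotide exchange factors Hspa4, Hspa4l and Hsph1 had ratios of 1.02, 1.01 and 0.936, all with intervals that included 1, although that of Hsph1 lay below 1 with total counts (0.808 to 0.983). Hspa14, which sits on the ribosome with Dnajc2, stood at 40.7 and 38.7 CPM. Hspa2, known from testis, had 98 and 108 reads and an interval that included 1.

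The heat shock element, 3 alternating GAA and TTC units spaced by NN on either strand, is the sequence that HSF1 trimers bind. It occurred in the promoters of 4 of 64 chaperones and in 0.662% of all genes, which likewise describes known sequence and was not tested. The 2-unit forms GAANNTTC and TTCNNGAA, which the 3-unit forms contain, occurred in 16 of 64 chaperones and in 17.0% of all genes. The 3-unit matches are shown in capitals within 30 bases, because they mark the evaluated genes with a complete element.
Hspe1: cacggtccgTTCTAGAACCTTCcggaaggc
Hspd1: ggccttccgGAAGGTTCTAGAAcggaccgt
Dnajb6: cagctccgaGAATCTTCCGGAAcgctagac
Hsph1: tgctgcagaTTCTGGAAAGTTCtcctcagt

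Hspe1 and Hspd1 are transcribed in opposite directions from the same place, and their lines show the same element on opposite strands (chr1:55088050-55088079 and chr1:55088051-55088080). The Dnajb6 stretch is chr5:29735843-29735872, and that of Hsph1, chr5:149636280-149636309, lies after the start site. The ratios of these 4 genes were 0.885, 0.989, 0.971 and 0.936, and each interval included 1. Dnajb1, a heat-inducible HSP40, stood at 32.8 and 34.9 CPM (1.07, 0.934 to 1.22), and Dnaja1 at 66.9 and 72.2 CPM (1.08, 0.985 to 1.18). Of the 11 evaluated HSF1 targets among the chaperones, Hsp90aa1, Hsp90ab1 and Hspa8 had intervals above 1 and 0 had one below, or 2 (Hspe1 and Hsph1) with total counts. Over all evaluated genes the shares with TMM scaling were 22.8% above 1 and 18.4% below, not matched by read number.

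The inducible HSP70 genes could not be read from this table. By GENCODE M21, Hspa1a (chromosome 17, 34969190 to 34972156), Hspa1b (34956436 to 34959238) and Hspa1l lie side by side, and all 3 were listed at 0 in both libraries. The RefSeq interval from Hspa1b to H2-D1 (34956429 to 35267497) holds 33 protein-coding genes of the table, and 31 of them were at 0 in both libraries. They include Csnk2b, Ddx39b and Lsm2, which cells of every kind use, and the macrophage gene Aif1. Over all protein-coding genes 30.6% were at 0 in both libraries. The 2 genes with reads were D17H6S56E-5 (6 and 13 reads) and Vars (1 and 8 reads).

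Hspa1a and Hspa1b also resemble each other, since 58.8% of the 50-base words of the Hspa1a transcript occur in that of Hspa1b. Their zeros are therefore not read as absence of inducible HSP70 RNA. The other 6 members at 0, Dnajb8, Dnajc5b, Dnajc5g, Dnajc6, Hspb2 and Hspb3, had between 0 and 5 genes at 0 among the 20 nearest protein-coding neighbours, compared with 9 to 11 around the Hspa1 genes. A count of 0 allows up to 0.248 CPM in WT and 0.194 CPM in KO.

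**Figure D2:**
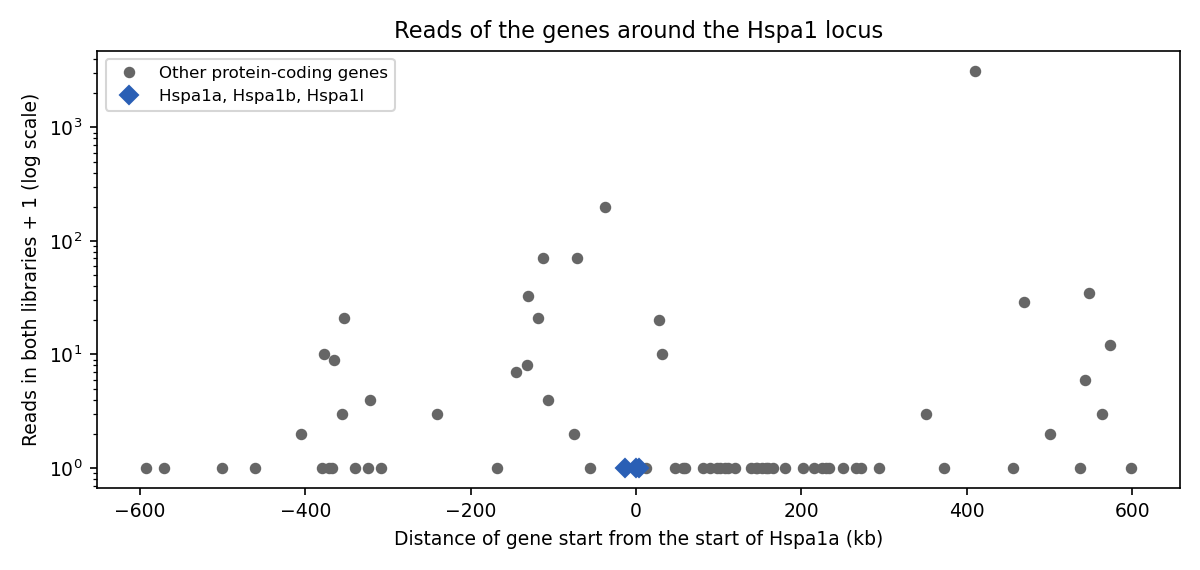
Reads of both libraries together plus 1 (vertical, log scale) for the protein-coding genes within 600 kb of Hspa1a, by distance of the gene start from that of Hspa1a in kb. Points at 1 on the vertical axis had no read, and 31 of the 33 genes from Hspa1b to H2-D1 lie there, the Hspa1 genes (diamonds) among them.

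Among mitochondrial chaperones the HSP70 differed from the chaperonin. Hspa9, or mortalin, which pulls proteins into the matrix (chromosome 18, 34937414 to 34954357), had 3645 and 5659 reads, 302 and 367 CPM, and a ratio of 1.22 (1.17 to 1.27). Hspd1, the HSP60 chaperonin, stood at 140 and 138 CPM, and its lid Hspe1 at 38.8 and 34.4 CPM. Hspa9 supplied 62.8% (61.5 to 64.0) of the reads of these 3 genes in WT and 68.0% (67.0 to 69.0) in KO.

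The J proteins of the import motor, Dnajc15 and Dnajc19, had ratios of 1.13 and 1.12 with intervals that included 1, as did Dnaja3 of the matrix (1.03). Dnajc28 was 1.31-fold lower (1.02 to 1.67) at 135 and 132 reads. Dnajc30, with 104 and 100 reads, had the lowest ratio of the mitochondrial list (0.753), and its interval reached 1. Of the exon bases of Dnajc30, 26.2% are shared with a gene on the other strand, and reads of the 2 cannot be told apart without the strand setting, which is not given in the sources used here. Of the 10 mitochondrial members, 6 had a ratio above 1, or 5 with total counts.

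The remaining DNAJ genes serve many places in the cell. Dnajc13 of early endosomes stood at 247 and 252 CPM, Dnajc5, the cysteine string protein of vesicles, at 186 and 184 CPM, and Dnaja2, a general HSC70 partner, at 150 and 155 CPM. All 3 intervals included 1. Dnajc7, which passes clients between HSP70 and HSP90, was 1.14-fold lower (1.07 to 1.23), at 127 and 111 CPM. Dnajc2, a ribosome-associated J protein, had a ratio of 1.19 (1.05 to 1.35), and Dnajb2 was 1.27-fold lower (1.02 to 1.58) at 166 and 167 reads. Of these 21 genes 10 had ratios above 1 and 11 below, and 18 had intervals that included 1. The ratios ran from 0.783 (Dnajc17) to 1.23 (Dnajc27). With total counts the intervals of Dnajc5 and Dnajc8 lay below 1, and that of Dnajc2 included 1.

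**Figure D3:**
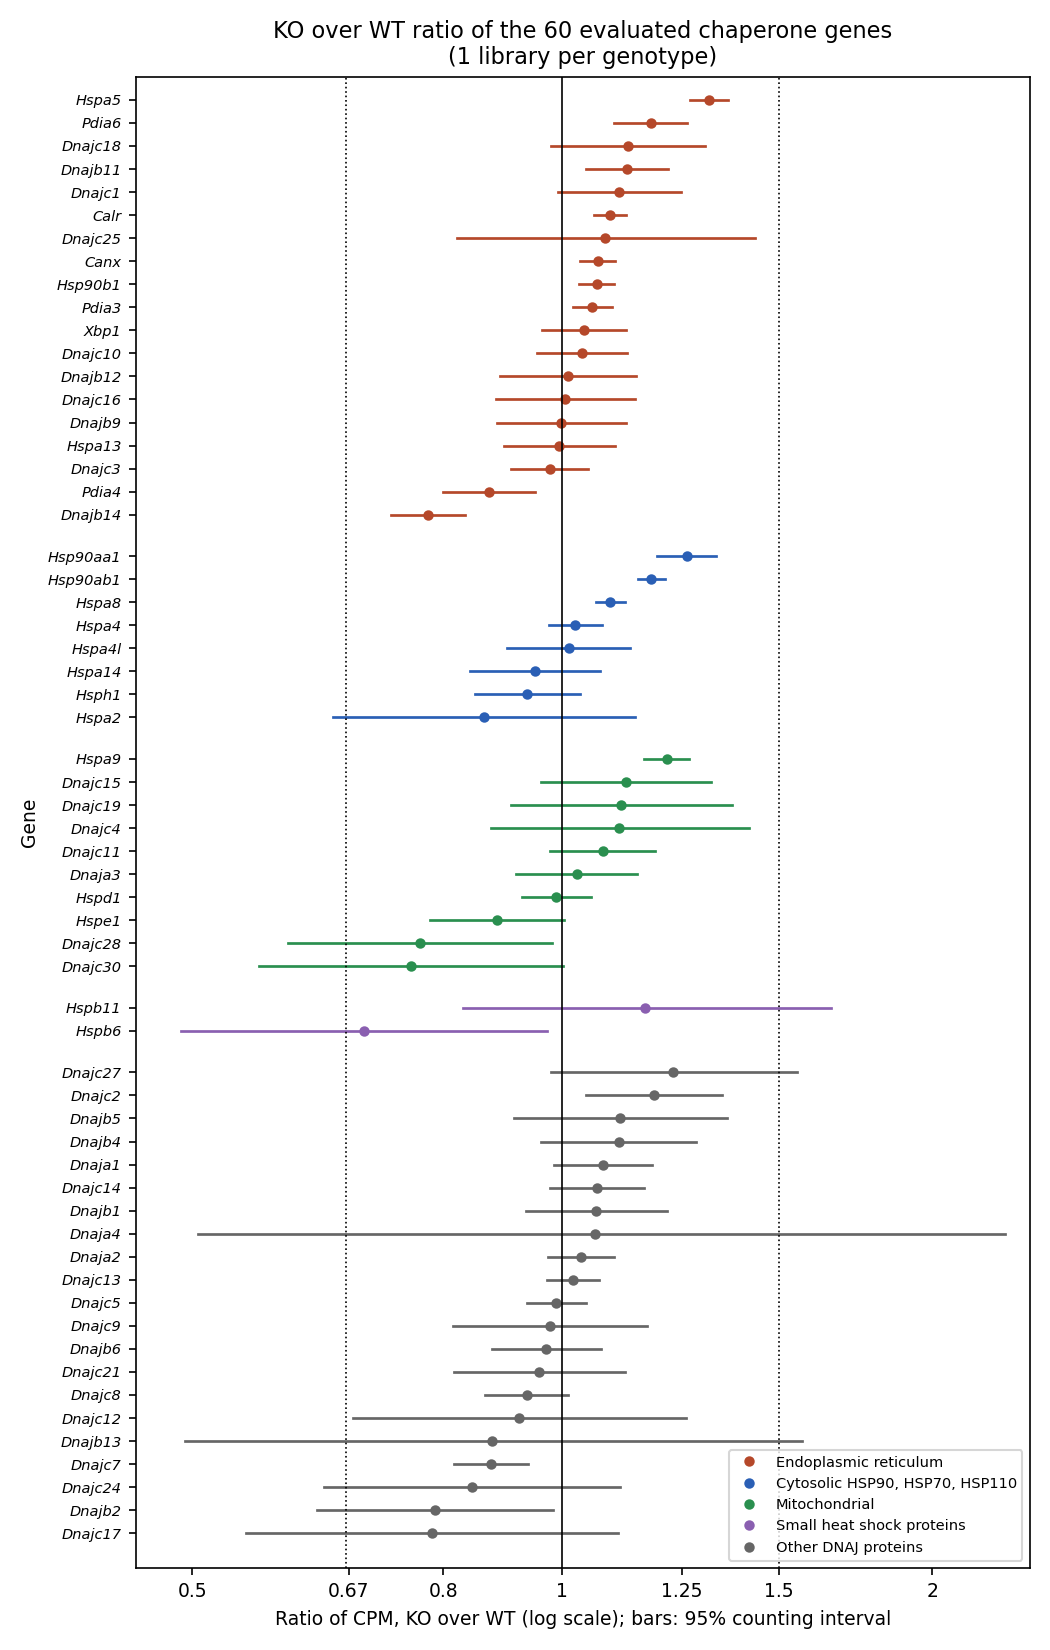
Ratio of CPM in the KO over the WT library (horizontal, log scale) for the 60 evaluated chaperone genes by compartment, with 95% counting intervals. The solid line marks equality and the dotted lines 1.5-fold. Hspa5, Hsp90aa1 and Hspa9 lie furthest to the right among genes with short intervals, Dnajb14 furthest to the left.

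Summed by class, HSP90 and HSPA genes were higher in KO, and the interval of the DNAJ sum included 1 with TMM scaling. The 3 HSP90 genes summed to 1552 CPM in WT and 1788 CPM in KO (ratio 1.15, 1.13 to 1.17), and the 13 HSPA genes to 1841 and 2107 CPM (1.14, 1.13 to 1.16). The 45 DNAJ genes summed to 1974 and 1975 CPM (1.001, 0.984 to 1.02). Scaled by total counts the 3 ratios were 1.10, 1.09 and 0.952. The HSPH gene stood at 62.4 and 58.5 CPM, and the chaperonin genes HSPD and HSPE summed to 180 and 173 CPM, both with intervals that included 1. Sums rest mainly on the few abundant genes of a class, such as Hspa8, Hspa5 and Hspa9 for HSPA.

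Independently of scaling, HSP90, HSPA and HSPH genes made up 63.6% (63.3 to 64.0) of their reads and those of the DNAJ genes in WT and 66.7% (66.4 to 67.0) in KO. The share was also higher in KO for Hspa9 and Hspa8 with partners of their compartments. Hspa9 had 79.1% (77.8 to 80.2) of the reads it shares with Dnaja3, Dnajc15 and Dnajc19 in WT and 81.1% (80.2 to 82.0) in KO. Hspa8 had 66.6% (65.8 to 67.4) and 68.8% (68.1 to 69.5) of those it shares with Dnaja1, Dnaja2, Dnajb1 and Dnajc7. Hspa14 went the other way against its ribosomal partner Dnajc2, with 54.8% (51.5 to 58.1) and 49.3% (46.4 to 52.2), a pair added after the data were seen. Calr had 52.8% (51.9 to 53.6) and 53.3% (52.6 to 54.0) of the reads it shares with Canx. Pdia6 had 18.6% (17.8 to 19.5) and 20.8% (20.1 to 21.7) of those with Pdia3 and Pdia4. Hsp90b1 had 37.6% (36.9 to 38.4) and 35.3% (34.7 to 35.9) of those with Hsp90ab1, a lower share in KO. The shares do not depend on scaling, but they restate the ratios of their genes, and ratios depend on level. Over all genes the median log2 ratio was 0.08 at 100 CPM or more and 0.006 between 10 and 100 CPM. Read shares were not among the planned results. With 1 library per genotype, how much these shares vary between cultures is not known.

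**Figure D4:**
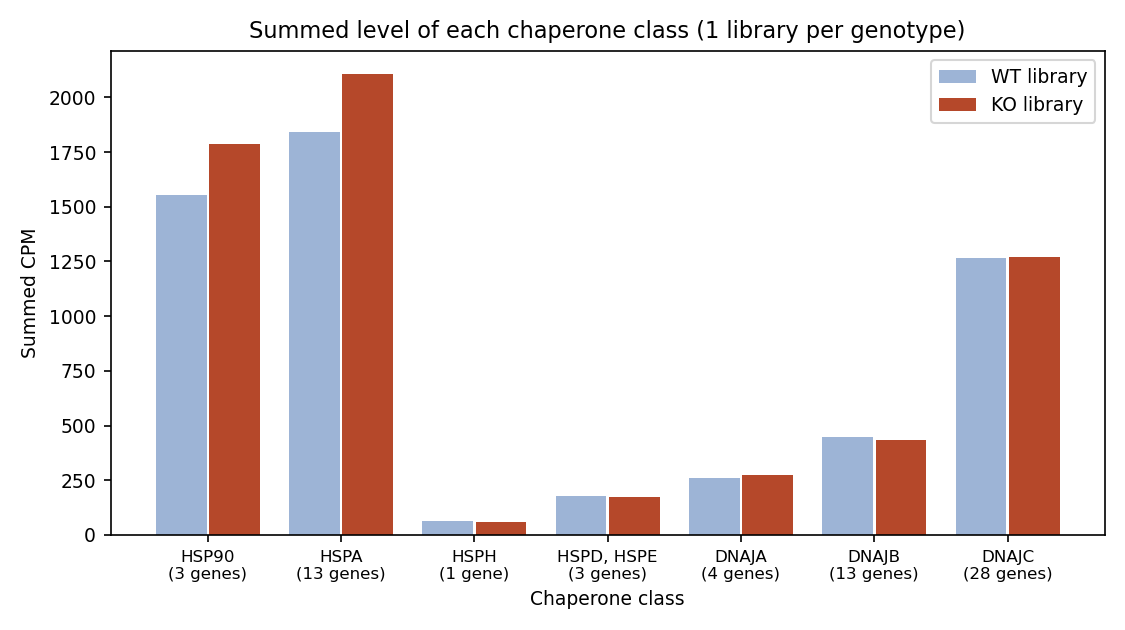
Summed CPM of the chaperone classes (bars from 0) in the WT and the KO library, with 1 library per bar. The KO bar is higher for HSP90 (1788 against 1552 CPM) and HSPA (2107 against 1841 CPM), while the bars of the DNAJC class are at 1264 and 1268 CPM.

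Small heat shock proteins were scarce. These HSPB proteins hold unfolded protein without ATP and are abundant in muscle. The 8 genes with an HSPB name summed to 14.0 CPM in WT and 11.2 CPM in KO, 1.248-fold lower. Without Hspb11, which belongs to the transport system of cilia, the other 7 summed to 9.11 and 5.51 CPM (1.65-fold lower), a sum added after the data were seen. Hspb6 (HSP20; chromosome 7, 30552178 to 30555443) had 76 and 67 reads, 1.45-fold lower (1.03 to 2.04), and 1.52-fold lower when scaled by total counts. Hspb8, which acts with BAG3, had 13 and 5 reads, Hspb7 had 7 and 3, and Hspb1, the HSP27 gene, had 5 and 3. These 3 were under the level limit, and the interval excluded 1 only for Hspb8 (3.32-fold lower, 1.11 to 11.9).

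The stromal markers given above were lower in KO as well, with Acta2 (smooth muscle actin) at 52.2 and 2.92 CPM. Of the 10 muscle markers 5 were at 0 in both libraries. Whether stromal cells contribute the small heat shock protein reads was not tested. Hspb11 had 59 and 88 reads and an interval that included 1.

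Other genes of the same pathways were read from lists. Of 28 evaluated heat shock factors and cochaperones none was at least 1.5-fold higher and 1, Bag2, lower (2.62-fold, 1.499 to 4.72, at 41 and 20 reads), with a median log2 ratio of -0.02. Ahsa1, which speeds the ATPase of HSP90, stood at 131 and 166 CPM, a ratio of 1.27 (1.19 to 1.35). The ubiquitin ligase Stub1 and Ahsa2 were 1.301-fold and 1.28-fold lower. Bag6 lies in the stretch of zeros on chromosome 17. The chaperonin TRiC and its partner prefoldin, which fold actin and tubulin, had no call among 14 genes and a median of 0.05 (-0.02 with total counts), with Tcp1 at 143 and 162 CPM. Mitochondrial import and quality control had no call among 21 genes and a median of 0.03 (-0.04 with total counts), and Afg3l2, a protease of the inner membrane, had a ratio of 1.27 (1.16 to 1.39).

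Genes listed under unfolded protein response signalling had a median log2 ratio of 0.22 over 17 genes. Of these, 2 were called higher and 0 lower, 14 had ratios above 1, 11 had intervals above 1 and 2 below. Over all evaluated genes 6.47% were called higher and 7.23% lower, and 51.8% had ratios above 1. Intervals lay above 1 for 22.8% of all genes and below 1 for 18.4%, shares not matched by level. The called genes were Nfe2l1 (231 and 355 CPM, ratio 1.53, 1.47 to 1.61) and Trib3, a target of ATF4 (9.52 and 14.6 CPM, ratio 1.53, 1.22 to 1.93). Nfe2l1 was on the list but is known as a transcription factor of proteasome genes. Atf3 stood at 214 and 321 CPM (1.496, 1.43 to 1.57), just under the limit. Creb3l2, at 16.5 and 11.2 CPM, was just short of it in the other direction (1.47-fold lower, 1.19 to 1.81). These calls depended on scaling: with total counts 0 were called higher (Nfe2l1 at 1.46, Trib3 at 1.46) and 1 lower (Creb3l2), and with DESeq2 size factors Atf3 was called too, for 3 higher. With total counts the median was 0.15, and intervals lay above 1 for 8 of the 17 genes and below 1 for 2. Eif2ak3, which encodes PERK, was 1.23-fold lower (1.08 to 1.39). Atf6b, on chromosome 17, had 1 and 2 reads and was not evaluated.

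Genes of ER folding and degradation had a median of 0.02 (-0.05 with total counts) over 41 genes, with 0 called higher and 1 lower (Pdia5, 29 and 19 reads). Sel1l, part of the degradation complex, had a ratio of 1.305 (1.24 to 1.37), while the isomerase gene Txndc5 was 1.298-fold lower (1.19 to 1.41) and Creld2, which responds to ER stress and holds the ER stress element, was 1.24-fold lower (1.04 to 1.47). Collagen chaperones differed far more. Of 15 genes 8 were lower and 0 higher, with a median of -1.11. Serpinh1 (HSP47), which folds procollagen, stood at 71.04 and 5.77 CPM and Fkbp10 at 16.3 and 1.296 CPM, beside Col1a1 itself at 714 and 58.9 CPM. Crtap, by contrast, had a ratio of 1.21 and P4ha1 one of 0.887. The stromal markers, with a median of -3.49, were lower in KO as well, and their part in the collagen chaperone values was not tested.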

How the data were processed

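The values are raw read counts per gene symbol, 1 column per library, in a table deposited by the authors. Per the submitters' processing notes, HISAT2 and GRCm38 were used. The version, counting program, annotation and strand setting are not stated there, so reads of near-identical, overlapping or antisense genes can fall on the wrong gene. Counts were scaled with TMM (edgeR 4.0.16, R 4.3.3) to CPM, and log2 ratios of KO over WT were taken after adding 0.5 CPM, which pulls low genes toward 0. Genes averaging 1 CPM or more were evaluated. Counting error is given as a 95% Clopper-Pearson (exact) interval, computed from how a gene's reads divide between libraries (scipy 1.17.1). Intervals and limits for a count of 0 (3 counts) cover counting error only, and PCR reads without molecular identifiers are not independent molecules. With 1 library per genotype there were no residual degrees of freedom and no test. A call needed both a 1.5-fold difference and an interval without 1. The calculation was tested on simulated data. Scalings by total counts and DESeq2 1.42.0 size factors, TMM without stromal genes, other filters, folds and added values were tried. Any member could be named, and for the other lists up to 3 genes averaging 5 CPM or more, ranked by their log2 ratio. Further genes were chosen after their values were seen: Csf1r, Lyz2, Col1a1, Bag2, Pdia5, Eif2ak3, Creb3l2, Atf6b, Crtap, P4ha1, Syvn1, Derl3, Herpud1 and those of the chromosome 17 stretch. The members and lists were chosen with earlier results of these data known. Protein sequences were not used here. Lengths came from GENCODE M21 and promoters from RefSeq GRCm38.p6.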

Additional observations from a re-analysis of the deposited data

How the results depend on the processing

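No paired analysis was possible because WT and KO had 1 library each, and leaving out a replicate was likewise not possible. The count of 0 higher chaperones held under all 3 other scalings, both other filters, the 2-fold limit and the stricter bound, was 2 at the 25% limit, and was 1 (Hspd1-ps3) when -ps rows were counted as members. The count of 0 lower ones was 1 with total counts (Hspb6), 1 with no filter (Hspb8) and 4 at the 25% limit. The median log2 ratio of 0.04 was -0.0274 with total counts, 0.0524 with DESeq2 size factors, 0 with no filter and 0.0578 for genes averaging 10 CPM or more. Total counts lower every ratio by the same factor. Intervals lay above 1 for 12 members and below 1 for 6, beside 22.8% and 18.4% of all evaluated genes, not matched by level. With total counts the members' counts were 7 and 12. Other scalings for these 2 counts and for the other lists, the -ps rows, the 2-unit heat shock element and the second ER pattern were chosen after the data were seen. Of the 60 ratios, 10 moved beyond their intervals with total counts and none with the other 2 scalings. Depth limits the rarest evaluated member, Dnaja4 with 33 reads, to a factor of 2.13 either way, compared with 1.03 for Hsp90ab1. Depth is not the only limit for Dnaja4. Of its exon bases, 44.1% are shared with Wdr61 on the other strand (313 reads in WT and 432 in KO), and the strand setting is not given.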

Other observations

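Among the pseudogene rows left out of the chaperones, Hspd1-ps3 had 54 and 107 reads (WT and KO), 4.47 and 6.93 CPM, a ratio of 1.55 (1.11 to 2.19). The ratio of its parent gene Hspd1 was 0.989 (0.927 to 1.05). Dnajb3 had 2 and 9 reads and Hspa12b 2 and 7, both under the level limit and with intervals that included 1.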
